A study of Mus musculus with 12 samples.

Results

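The phase II conjugation enzymes measured here are 68 of the 55471 genes in the expression table of a mouse kidney study. Membership was set by gene symbol alone, but the families were chosen with earlier results of these data known. The UDP-glucuronosyltransferases (UGT) give 22 members, namely 9 of the UGT1A family, 10 of UGT2 and 3 of UGT3 and UGT8. The cytosolic and kappa glutathione S-transferases (GST) also give 22, namely 4 alpha, 7 mu, 3 pi, 4 theta and 4 of the omega, zeta and kappa classes. There are 3 microsomal glutathione S-transferases (MGST) and 21 sulfotransferases (SULT), and 7 symbols that carry the pseudogene mark -ps were left out.

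Phase II enzymes attach a polar group to a foreign compound, a steroid, a bile pigment or a lipid product, so that it dissolves in water and can be carried out of the cell. UGTs transfer a sugar from a UDP-sugar, GSTs join glutathione to an electrophile, and SULTs transfer sulfate from the donor PAPS. In the kidney the proximal tubule is the main site of this chemistry, where glutathione conjugates are also trimmed to mercapturates and organic anion transporters move the products. Several rodent members are known to differ between the sexes in liver and kidney.

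RNA was sequenced from 12 left kidneys of C57/BL6 mice aged 8 to 12 weeks, in 4 groups. Sprr2f knockout (KO) mice lack a small proline-rich protein of the epithelial barrier, and gave 3 kidneys at day 5 and 4 at day 0 of unilateral ureteral obstruction. Wild type (WT) mice gave 3 kidneys at day 5 and 2 at day 0. In this model a clamp closes the left ureter, so that urine backs up into the kidney. All 4 groups carry the treatment label UUO, and whether the day 0 mice were operated on, and how the knockout allele was made, is not given in the sources used here. Each library is listed as its own kidney with no further detail, so p-values measure only the spread between these samples, which may be technical.

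Libraries held 16567256 to 19398882 reads counted to genes. Sprr2f itself stood at 0, 2.17 and 4.07 CPM (counts scaled to the library total) in KO kidneys at day 5, against 27.1, 26.9 and 58.8 CPM in WT kidneys at day 5, and at no more than 0.262 CPM in any day 0 kidney. The series title speaks of female mice, yet 7 libraries held Y-linked transcripts (111.7 to 169.8 CPM summed over 4 genes) and 5 held Xist, the RNA of the inactive X chromosome (481 to 893 CPM), and at most 2.11 CPM of Xist was found in the first set and 0.979 CPM of the Y-linked genes in the second. At day 5, 1 KO and 1 WT kidney had the Y-linked pattern (KO replicate 2 and WT replicate 3). At day 0, all 4 KO kidneys and WT replicate 1 had it, which leaves WT replicate 2 as the single day 0 kidney with Xist. That kidney stood apart from the other day 0 kidneys in many members, and results that rest on it are named as such, with the value without it where one can be had.

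Levels below are scaled CPM, the deposited CPM divided by a TMM scaling factor, and 1 read was worth about 0.05 to 0.06 CPM before scaling. Of the 68 members, 58 had at least 1 read and 46 passed the filter on low counts and were tested. The 10 with no read in any library were Ugt2a1, Ugt2a2, Sult3a1, Sult3a2 and Sult2a1, Sult2a2, Sult2a4, Sult2a5, Sult2a6 and Sult2a7. The other 12 untested members, Ugt1a1, Ugt1a5, Ugt1a8, Ugt2b1, Ugt2b35, Ugt2b36, Gstm3, Gstt4, Sult1c1, Sult2a3, Sult2a8 and Sult6b2, never exceeded 9 reads in a library. All 9 tested SULTs lie outside the Sult2a and Sult3a groups. Sult2a enzymes conjugate steroids and bile acids in rodent liver.

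Summed over all 68 members, the level was 2587 ± 134 scaled CPM in KO kidneys at day 5 (SD, n = 3), against 6299 ± 312 in KO kidneys at day 0 (SD, n = 4). WT kidneys gave 2260 ± 41.2 at day 5 (SD, n = 3), against 5802 ± 17.2 at day 0 (SD, n = 2). No day 5 library reached any day 0 library in this sum. The same separation held for the summed UGT3 and UGT8 genes, which lay at 274 to 470 scaled CPM at day 5 and 1330 to 2041 at day 0. It held as well for the mu, pi and theta classes, for the omega, zeta and kappa classes together and for the SULTs. UGT1A, UGT2, GST alpha and MGST sums overlapped between the days. For UGT2 the overlap rested on WT day 0 replicate 2 alone, at 154 scaled CPM. The other day 0 kidneys held 1095 to 1629, against 95.4 to 244 at day 5.

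**Figure D1:**
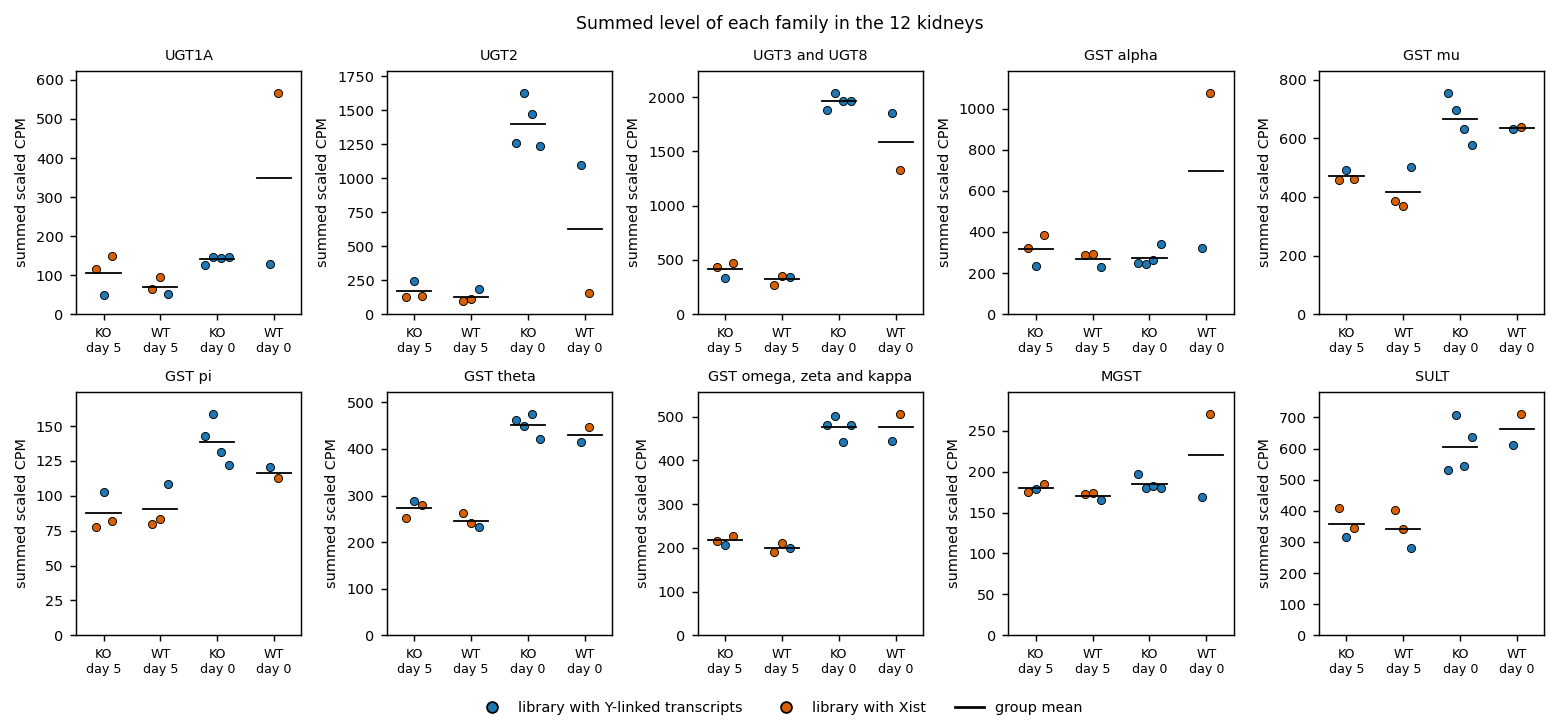
Summed scaled CPM of the 10 families (y axes, each from 0) in the KO day 5, WT day 5, KO day 0 and WT day 0 kidneys; each point is 1 library, coloured by its sex-chromosome transcripts, and lines are group means. The UGT3 and UGT8 sum is at most 470 in every day 5 library and at least 1330 in every day 0 library, while the single day 0 Xist library stands at 567 for UGT1A and 1077 for GST alpha.

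A few genes made up most of each family. Per kilobase of exon, Ugt2b38 had the highest mean level at day 0 in KO kidneys (619 scaled CPM per kb), followed by Ugt3a2 (529), Gstm1 (306) and Sult1d1 (210). At day 5 the order in KO kidneys was Gstm1 (202), Gsta2 (176), Sult1d1 (112) and Ugt3a2 (112). Gstp1 supplied 97.1% of the summed pi class in KO kidneys at day 5 and 98.2% at day 0, and Ugt3a2 83.7% and 83.5% of the UGT3 and UGT8 sum. In the MGST family the leading gene differed: it was Mgst1 at day 5, with 53.5% of the KO sum and 56.4% of the WT sum, and Mgst3 at day 0, with 72.2% in KO and 64.8% in WT.

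With TMM scaling, obstruction lowered more members than it raised. With library size only, more members were called higher than lower in KO, while in WT more were still lower. The TMM factors lay at 1.13 to 1.19 at day 5 and at 0.795 to 0.897 at day 0. In KO kidneys, 8 of the 46 tested members were higher and 21 lower at day 5 than at day 0 (limma, adjusted p under 0.05), where 29.4% of all 18093 tested genes were higher and 25.4% lower (54.8% in all). In WT kidneys 7 were higher and 23 lower, where 24.5% of all tested genes were higher and 22.6% lower (47.1% in all). The median log2 fold change of the tested members was -0.44 in KO and -0.61 in WT, against 0.07 and 0.04 over all tested genes. In both genotypes 18 members fell and 5 rose, and no member was called in opposite directions. Of the 46 tested members, 27 were called in KO with groups that did not overlap (50.8% of all tested genes were) and 28 in WT (47.0% of all). A called change of at least 2-fold was found for 14 in KO (19.6% of all) and 21 in WT (20.8% of all).

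**Figure D2:**
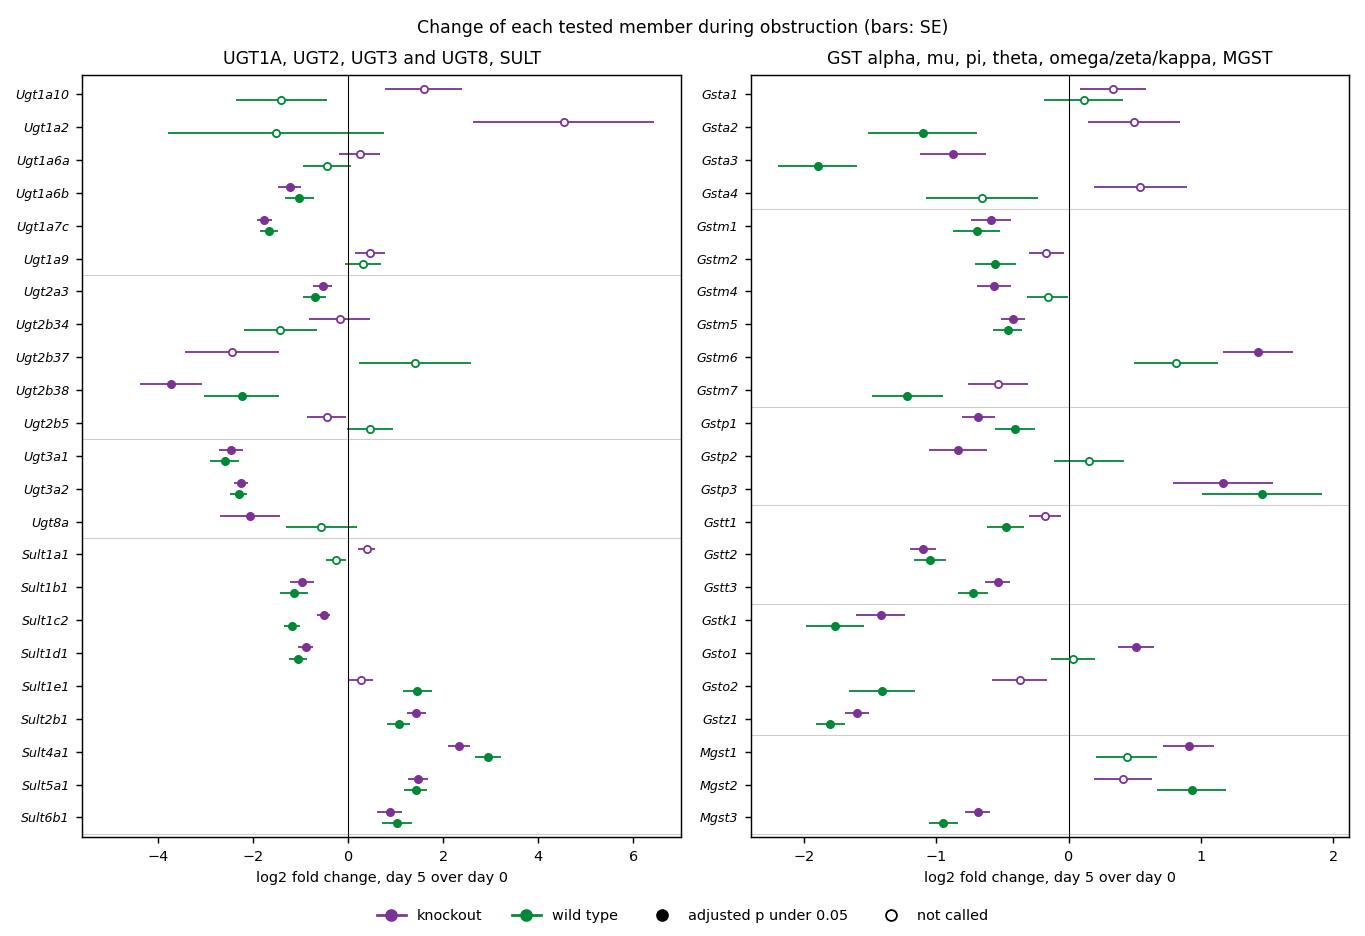
Log2 fold change of day 5 over day 0 (x axis; bars are the standard error) for the 46 tested members, in KO (purple, upper point) and WT (green, lower point); filled points passed an adjusted p of 0.05 and lines part the families. Ugt3a1 and Ugt3a2 lie between -2.60 and -2.27 in both genotypes, and Sult4a1 lies at 2.32 in KO and 2.93 in WT.

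The sex-chromosome pattern was not balanced over days in KO, where 1 of 3 day 5 kidneys and 4 of 4 day 0 kidneys were Y-linked. With the pattern as a covariate, 7 members were called higher and 25 lower in KO, where 27.0% of all tested genes were higher and 25.3% lower. In WT 8 were higher and 26 lower, where 26.5% of all were higher and 25.2% lower. Libraries of 1 pattern leave arms of a single library, which are assumed to vary like the groups that have more. In Y-linked libraries alone, KO set 1 day 5 kidney against 4 at day 0, with 7 members higher and 22 lower (22.3% and 21.4% of all). WT set 1 against 1, with 8 higher and 21 lower (16.7% and 17.2% of all), and the spread in both came from the KO day 0 kidneys alone. In Xist libraries alone, WT set 2 against 1, with 7 higher and 26 lower (20.7% and 17.8% of all), and the spread came from the day 5 kidneys. With the covariate the KO change was -2.43 for Ugt2b38 (adjusted p = 1.02e-04) and -0.73 for Ugt8a (adjusted p = 0.0311), both smaller than the values given below, and Ugt1a2 was called lower in WT (-2.59, adjusted p = 1.52e-04).

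Markers of other cells moved over the same days. All 20 proximal tubule markers were lower in WT and 19 of 20 in KO, with summed levels of 12861 to 14482 scaled CPM in KO and 6933 to 11931 in WT kidneys at day 5, against 57860 to 77064 in KO and 38648 to 57330 in WT kidneys at day 0. The fall was not confined to that segment, since of 10 loop and distal markers 8 were lower in KO and 7 in WT, with none higher. Of 10 macrophage and leukocyte markers 8 rose in KO and 9 in WT, all 9 fibroblast markers rose in both, and 7 (KO) and 8 (WT) of 9 urothelium markers rose. In bulk tissue, fewer cells of a type and less RNA per cell cannot be told apart, and the part of these shifts in the members' changes was not tested.

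UGT3 enzymes use sugars other than glucuronic acid, and both genes of the family were among the largest falls. Ugt3a2 had 368, 261 and 410 scaled CPM in KO kidneys at day 5, against 1571, 1721, 1653 and 1612 at day 0. In WT kidneys Ugt3a2 had 241, 301 and 262 at day 5, against 1505 and 1169 at day 0. Every day 5 value was less than any day 0 value. The log2 fold change was -2.27 ± 0.15 (SE) in KO (adjusted p = 1.15e-07) and -2.31 ± 0.17 in WT (adjusted p = 5.97e-07).

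Ugt3a1, its neighbour on chromosome 15, had 53.1, 29.7 and 49.6 scaled CPM in KO kidneys at day 5, against 241, 221, 235 and 258 at day 0. WT kidneys held 21.1, 40.2 and 40.7 at day 5, against 265 and 152 at day 0. The change was -2.47 ± 0.25 in KO (adjusted p = 4.51e-06) and -2.60 ± 0.30 in WT (adjusted p = 1.77e-05), again without overlap. Ugt8a, which makes galactosylceramide, a lipid of myelin and of kidney membranes, behaved less uniformly. It stood at 15.6, 44.3 and 10.45 scaled CPM in KO kidneys at day 5, against 71.4, 99.0, 74.6 and 91.3 at day 0. WT kidneys held 11.6, 15.1 and 40.1 at day 5, against 80.6 and 10.03 at day 0, so the groups overlapped. Its change was -2.07 ± 0.63 in KO (adjusted p = 0.0139) and -0.57 ± 0.75 in WT (adjusted p = 0.571). Without KO day 5 replicate 3 the KO change was -1.64 (adjusted p = 0.068).

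The UGT1A family is 1 locus on chromosome 1 in which each enzyme has its own first exon and all share the remaining exons, so reads from the shared part could not be assigned to 1 gene (Ugt1a2 has 900 exon bases of no other gene among 2211). Ugt1a7c was the leading member in KO kidneys at day 0. It had 32.6, 47.1 and 40.3 scaled CPM in KO kidneys at day 5, against 122.3, 143.1, 140.3 and 139.9 at day 0. WT kidneys held 28.2, 32.6 and 47.8 at day 5, against 121.2 and 107.1 at day 0. Ugt1a7c thus fell in both genotypes without overlap, with a log2 fold change of -1.77 ± 0.16 in KO (adjusted p = 1.48e-06) and -1.68 ± 0.19 in WT (adjusted p = 1.48e-05). Ugt1a6b, at 1.51 scaled CPM or less in every kidney, was also lower in both, the WT call being lost without WT day 0 replicate 1 (-0.52, adjusted p = 0.212). The other 4 tested UGT1A genes (Ugt1a2, Ugt1a10, Ugt1a6a and Ugt1a9) were not called in either genotype.

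UGT2B enzymes glucuronidate steroids, bile acids and drugs, and Ugt2b38 was the most abundant of the family. It had 64.3, 154.4 and 64.7 scaled CPM in KO kidneys at day 5, against 1045, 1402, 1241 and 991 at day 0. WT kidneys held 34.6, 46.0 and 110.5 at day 5, against 934 and 76.8 at day 0. The KO groups lay apart, while the WT groups overlapped because WT day 0 replicate 2 was low. The change was -3.74 ± 0.66 in KO (adjusted p = 3.79e-04) and -2.25 ± 0.79 in WT (adjusted p = 0.0319). In WT the call was lost without WT day 0 replicate 1 (-0.45, adjusted p = 0.565) and without day 5 replicate 1 (-1.90, adjusted p = 0.0976) or 2 (-2.10, adjusted p = 0.0787). Of the other 4 tested UGT2 genes, Ugt2a3, at 1.56 scaled CPM or less in every kidney, was lower in both genotypes and Ugt2b34, Ugt2b37 and Ugt2b5 were called in neither. The KO groups of Ugt2b37 nevertheless lay apart, at 23.2 to 77.0 scaled CPM at day 5, against 191.6 to 204 at day 0. WT day 0 replicates 1 and 2 held 126.1 and 1.39 of Ugt2b37, and the test uses 1 estimate of spread for all groups. Other genes hold 37.4% of the 50-base stretches (the read length) in Ugt2b38, 41.7% of those in Ugt2b5 and 18.3% of those in Ugt2b37. Most of this sharing is among these genes themselves, so their reads could not be fully told apart. The Ugt2a3 calls were lost when any of 5 single libraries was left out in KO (adjusted p up to 0.1002, without KO day 5 replicate 1) and any of 3 in WT (up to 0.133, without WT day 0 replicate 2).

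Among the GSTs, Gstz1 and Gstk1 of the zeta and kappa classes had the largest falls in KO kidneys. Gstz1, the maleylacetoacetate isomerase of tyrosine breakdown, had 115.9, 104.7 and 125.3 scaled CPM in KO kidneys at day 5, against 347, 377, 327 and 350 at day 0. WT kidneys held 92.8, 96.0 and 77.1 at day 5, against 306 and 311 at day 0. Its change was -1.60 ± 0.09 in KO (adjusted p = 5.52e-08) and -1.80 ± 0.11 in WT (adjusted p = 1.60e-07), the smallest adjusted p of any member in both genotypes. Gstk1, which resides in mitochondria and peroxisomes, stood at 29.4, 20.6 and 33.1 scaled CPM in KO kidneys at day 5, against 76.9, 76.9, 64.5 and 76.5 at day 0. WT kidneys had 24.0, 27.4 and 16.7 at day 5, against 65.7 and 89.9 at day 0. Gstk1 fell by 1.42 in KO and by 1.77 in WT, on the log2 scale.

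The omega class split. Gsto1, which reduces dehydroascorbate, had 69.5, 80.8 and 67.3 scaled CPM in KO kidneys at day 5, against 55.1, 46.7, 48.9 and 52.3 at day 0, and rose there (0.51 ± 0.14, adjusted p = 0.00766). WT kidneys had 72.4, 86.2 and 104.0 at day 5, against 70.3 and 102.1 at day 0, with no call (0.03 ± 0.17, adjusted p = 0.898). Gsto2 stood at 1.37, 0.788 and 1.30 in KO kidneys at day 5, against 1.92, 1.52, 1.88 and 1.19 at day 0. In WT it had 0.898, 1.01 and 0.570 at day 5, against 2.66 and 3.32 at day 0, and was called lower there (-1.41 ± 0.25, adjusted p = 4.70e-04) and not in KO (-0.37 ± 0.21, adjusted p = 0.15). The difference between genotypes in either change did not pass the interaction test given below.

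Theta class enzymes act on small halogenated and epoxide substrates. Gstt2 had 118.5, 153.2 and 128.9 scaled CPM in KO kidneys at day 5, against 291, 281, 312 and 259 at day 0, and in WT kidneys 130.1, 107.1 and 122.5 at day 5, against 258 and 238 at day 0. The falls of -1.10 ± 0.10 in KO (adjusted p = 1.65e-06) and -1.05 ± 0.12 in WT (adjusted p = 1.55e-05) were nearly equal. No day 5 value reached a day 0 value.

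Gstt3 had 23.1, 27.5 and 27.2 scaled CPM in KO kidneys at day 5, against 37.2, 39.2, 37.3 and 37.4 at day 0 (-0.54 ± 0.09, adjusted p = 3.99e-04), and in WT kidneys 28.0, 22.2 and 22.8 at day 5, against 40.0 and 40.5 at day 0 (-0.72 ± 0.11, adjusted p = 1.96e-04). It was lower in every day 5 kidney. Gstt1 had 109.3, 107.1 and 124.6 in KO kidneys at day 5, against 134.7, 128.1, 125.7 and 125.2 at day 0, with no call (-0.18 ± 0.12, adjusted p = 0.219). WT kidneys held 103.8, 111.4 and 87.4 at day 5, against 116.5 and 167.6 at day 0, and were called (-0.48 ± 0.14, adjusted p = 0.0138). Neither genotype's groups overlapped, and the WT call was lost without day 0 replicate 2 (-0.21, adjusted p = 0.233) or day 5 replicate 3 (-0.38, adjusted p = 0.0525).

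Mu class enzymes handle epoxides and quinones. Gstm1 was the most abundant GST, with 286, 319 and 288 scaled CPM in KO kidneys at day 5, against 520, 484, 425 and 372 at day 0. WT kidneys held 237, 229 and 354 at day 5, against 443 and 423 at day 0. Its fall was -0.58 ± 0.15 in KO (adjusted p = 0.00499) and -0.69 ± 0.18 in WT (adjusted p = 0.00622). Gstm6 went the other way, with 3.62, 5.62 and 3.39 scaled CPM in KO kidneys at day 5, against 1.73, 0.607, 1.102 and 1.67 at day 0 (1.43 ± 0.27, adjusted p = 5.77e-04). In WT kidneys it had 3.78, 3.17 and 4.38 at day 5, against 1.51 and 2.42 at day 0 (0.81 ± 0.32, adjusted p = 0.0519). No groups of Gstm6 overlapped within a genotype. Gstm7 stood at 5.03, 4.34 and 7.85 in KO kidneys at day 5, against 8.47, 7.74, 7.26 and 9.88 at day 0 (-0.53 ± 0.22, adjusted p = 0.0602). WT kidneys held 3.88, 5.14 and 4.07 at day 5, against 7.99 and 14.4 at day 0 (-1.22 ± 0.27, adjusted p = 0.00235). Its groups overlapped in KO and not in WT. Gstm4 had 13.3, 13.8 and 13.8 in KO kidneys at day 5, against 21.3, 22.8, 19.2 and 18.6 at day 0, and was called lower (-0.56 ± 0.13, adjusted p = 0.00255), while WT kidneys held 12.0, 13.7 and 16.6 at day 5, against 13.7 and 17.8 at day 0, and were not called (-0.16 ± 0.15, adjusted p = 0.434). Gstm5 was called lower in both genotypes and Gstm2 in WT, the Gstm2 call being lost without WT day 0 replicate 2 (-0.47, adjusted p = 0.082).

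Gsta2 and Gsta3, alpha class enzymes that reduce lipid hydroperoxides and conjugate aflatoxin epoxide in mice, differed from each other. Gsta3 had 49.3, 32.4 and 63.7 scaled CPM in KO kidneys at day 5, against 77.99, 89.8, 78.1 and 99.5 at day 0 (-0.87 ± 0.25, adjusted p = 0.0101). WT kidneys held 37.6, 34.7 and 26.5 at day 5, against 84.3 and 178 at day 0 (-1.90 ± 0.30, adjusted p = 2.02e-04). Gsta2 stood at 216, 158 and 245 in KO kidneys at day 5, against 129, 117, 145 and 198 at day 0, with no call (0.49 ± 0.35, adjusted p = 0.249). In WT kidneys it had 188, 183 and 124 at day 5, against 182 and 669 at day 0, and the call there (-1.10 ± 0.41, adjusted p = 0.0437) was lost when any of 8 single libraries was left out, and most without day 0 replicate 2 (-0.17, adjusted p = 0.699). Other genes, Gsta1 above all, hold 49.8% of the 50-base stretches in Gsta2, so reads of Gsta1 and Gsta2 could not be fully told apart.

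Gstp1, the pi class enzyme that also binds stress kinases, had 75.8, 99.1 and 80.4 scaled CPM in KO kidneys at day 5, against 142, 155, 128 and 120 at day 0 (-0.68 ± 0.13, adjusted p = 5.58e-04). WT kidneys held 77.2, 80.9 and 105.0 at day 5, against 119.6 and 111.4 at day 0 (-0.41 ± 0.15, adjusted p = 0.0407). The WT call was lost when any of 6 single libraries was left out, with adjusted p of up to 0.185 (without WT day 0 replicate 1). Gstp3 rose in both genotypes, to 0.749, 3.10 and 1.07 in KO kidneys at day 5, against 0.185, 0.911, 0.194 and 0.298 at day 0, and to 1.42, 1.06 and 2.54 in WT kidneys at day 5, against 0.424 and 0.121 at day 0. The KO groups overlapped, and its KO call was lost without KO day 5 replicate 2 (0.71, adjusted p = 0.101) or KO day 0 replicate 1 or 3 (adjusted p 0.0541 and 0.0547). The WT call was lost without WT day 0 replicate 2 (1.18, adjusted p = 0.131) or day 5 replicate 3 (1.18, adjusted p = 0.0641). Gstp2 had 1.28, 0.887 and 0.650 in KO kidneys at day 5, against 1.30, 2.35, 2.66 and 2.02 at day 0 (-0.84 ± 0.22, adjusted p = 0.00626), and in WT kidneys 0.898, 1.11 and 1.18 at day 5, against 0.787 and 1.03 at day 0 (0.15 ± 0.26, adjusted p = 0.67). Other genes hold 54.3% of its 50-base stretches and 33.7% of those in Gstp1.

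MGSTs are membrane enzymes, of which Mgst1 is a peroxidase of the endoplasmic reticulum and outer mitochondrial membrane. Mgst1 had 95.9, 97.7 and 94.7 scaled CPM in KO kidneys at day 5, against 54.1, 50.4, 51.3 and 48.3 at day 0 (0.91 ± 0.19, adjusted p = 0.00147). WT kidneys held 100.1, 95.9 and 92.8 at day 5, against 46.7 and 107.2 at day 0, and were not called (0.44 ± 0.23, adjusted p = 0.135). The day 5 values of all 6 kidneys lay within 92.8 to 100.1, and at day 0 the Xist library alone lay above them. Mgst3 fell in both genotypes, to 78.5, 80.4 and 90.1 in KO kidneys at day 5, against 143, 129, 131 and 131 at day 0 (-0.69 ± 0.09, adjusted p = 4.82e-05). WT kidneys held 71.7, 76.4 and 71.4 of Mgst3 at day 5, against 122.4 and 163 at day 0 (-0.95 ± 0.11, adjusted p = 1.92e-05). Mgst2 was called higher in WT (0.93 ± 0.26, adjusted p = 0.0111), a call lost without WT day 0 replicate 1 (0.84, adjusted p = 0.0763).

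Among the 9 tested SULTs, 3 fell in both genotypes and 4 rose in both. Sult1d1, which sulfates catecholamines and eicosanoids in mice, supplied most of the family and had 323, 244 and 261 scaled CPM in KO kidneys at day 5, against 436, 629, 460 and 540 at day 0. WT kidneys held 329, 266 and 213 at day 5, against 515 and 588 at day 0. The fall was -0.90 ± 0.16 in KO (adjusted p = 4.29e-04) and -1.05 ± 0.19 in WT (adjusted p = 6.12e-04). All day 5 values lay under all day 0 values.

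Sult1c2, a phenol sulfotransferase, had 46.8, 41.8 and 49.3 scaled CPM in KO kidneys at day 5, against 71.7, 55.7, 64.7 and 73.6 at day 0 (-0.52 ± 0.14, adjusted p = 0.00648). WT kidneys held 29.8, 42.0 and 33.7 at day 5, against 68.9 and 93.4 at day 0 (-1.19 ± 0.17, adjusted p = 7.26e-05). Sult1b1, which acts on thyroid hormones, had 2.16, 1.68 and 2.37 in KO kidneys at day 5, against 4.08, 5.47, 3.11 and 5.89 at day 0 (-0.97 ± 0.25, adjusted p = 0.00502). WT kidneys held 1.65, 2.82 and 1.36 at day 5, against 4.05 and 5.50 at day 0 (-1.14 ± 0.30, adjusted p = 0.0066). Neither gene's groups overlapped, and the WT call of Sult1b1 was lost without WT day 0 replicate 2 (-0.94, adjusted p = 0.0655).

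Sult4a1, a brain-enriched member with no established substrate, showed the largest called rise. It had 2.42, 4.34 and 2.32 scaled CPM in KO kidneys at day 5, against 0.062, 0.152, 0.194 and 0.357 at day 0. WT kidneys held 5.67, 3.73 and 4.21 at day 5, against 0.182 and 0.121 at day 0. Every day 5 value exceeded every day 0 value, and the fitted change was 2.32 ± 0.23 in KO (adjusted p = 3.28e-06) and 2.93 ± 0.28 in WT (adjusted p = 3.05e-06) on the log2(scaled CPM + 0.5) scale, which understates the change of a gene this low. Sult5a1 had 7.76, 5.47 and 7.94 in KO kidneys at day 5, against 2.97, 1.59, 1.88 and 2.56 at day 0 (1.47 ± 0.21, adjusted p = 6.43e-05). WT kidneys gave 9.07, 6.85 and 6.44 at day 5, against 2.48 and 2.42 at day 0 (1.42 ± 0.25, adjusted p = 4.45e-04). Sult2b1, the cholesterol sulfotransferase of stratified epithelia, rose to 3.09, 3.65 and 2.14 in KO kidneys at day 5, against 1.05, 0.607, 0.843 and 0.595 at day 0, and to 3.73, 2.92 and 4.34 in WT kidneys at day 5, against 1.51 and 1.45 at day 0. Sult6b1 was higher in both genotypes and Sult1e1, the estrogen sulfotransferase, in WT by call, each at 1.40 scaled CPM or less in every kidney. The Sult6b1 calls were lost without KO day 5 replicate 1 (0.64, adjusted p = 0.0753) in KO and without WT day 0 replicate 1 (0.88, adjusted p = 0.112) or WT day 5 replicate 1 (0.93, adjusted p = 0.0525) in WT.

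**Figure D3:**
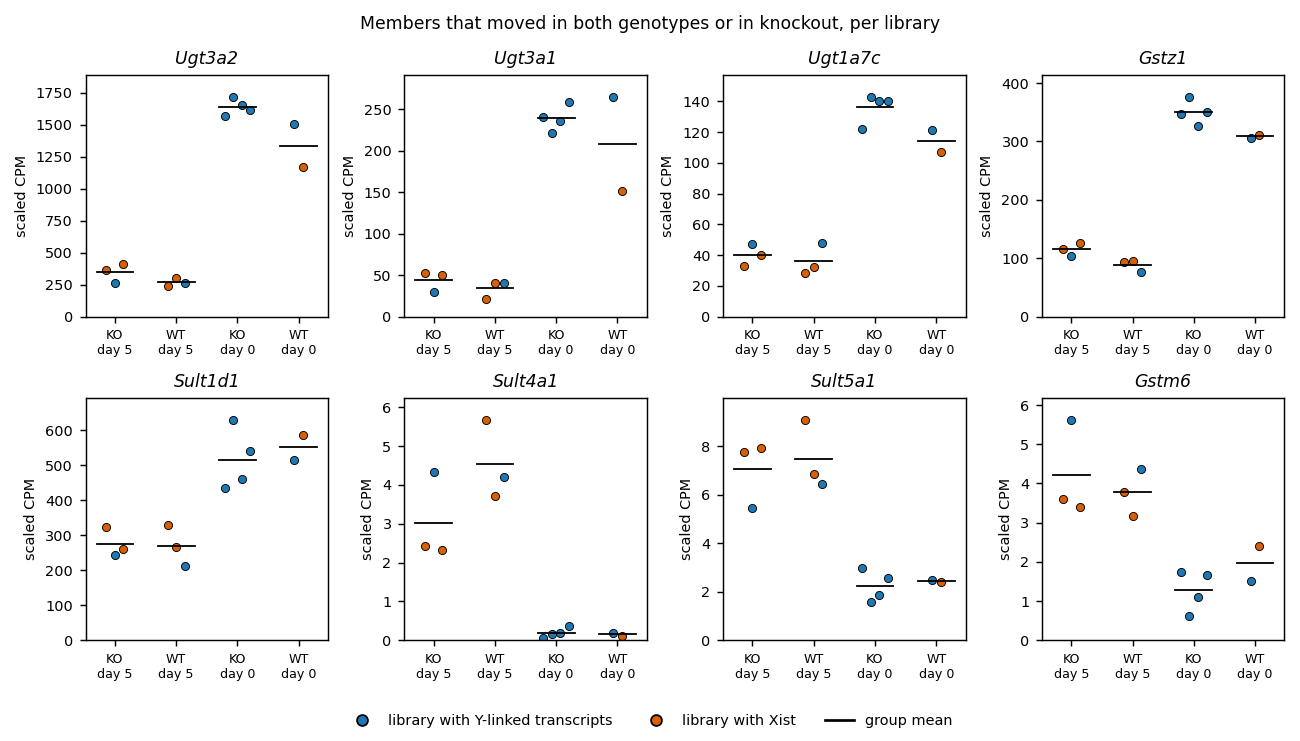
Scaled CPM per library (y axes, each from 0) of 8 members in the KO day 5, WT day 5, KO day 0 and WT day 0 kidneys; points are libraries coloured by sex-chromosome transcripts and lines are group means. Ugt3a2, Ugt3a1, Ugt1a7c, Gstz1 and Sult1d1 are lower in all day 5 libraries, and Sult4a1, at most 0.357 in every day 0 library, is at least 2.32 in every day 5 library.

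The promoter window of Mgst1, which rose in KO, is shown to set its letters beside these values. It is RefSeq sequence of GRCm38.p6, from 150 bases before the start site to 50 after it, on the gene's strand, at chr6:138140377-138140576. Capitals mark a match, on either strand, to the core of the antioxidant response element (TGAC, any 3 bases and GC), the element that NRF2 binds.
Mgst1: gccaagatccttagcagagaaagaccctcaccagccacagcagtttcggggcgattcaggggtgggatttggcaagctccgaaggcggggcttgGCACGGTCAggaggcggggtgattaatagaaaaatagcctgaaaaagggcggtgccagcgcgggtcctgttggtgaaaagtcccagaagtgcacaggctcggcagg

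In that window the antioxidant core lies 56 bases before the start site. Read over 300 bases, it was found in the promoters of 4 of the 60 members with an entry in the RefSeq table (Mgst1, Gsta3, Gstm5 and Gstm7) and in 12.4% of all 32851 promoters of that length. A match describes the letters only. The other 3 were called lower, Gsta3 and Gstm5 in both genotypes and Gstm7 in WT.

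Other genes of the same chemistry moved with the members. Of 9 mercapturate pathway genes, which process glutathione conjugates, 7 were lower and 1 higher in both genotypes, with Ggt1 at a log2 fold change of -1.99 ± 0.16 in KO and -1.76 ± 0.19 in WT. Among 13 tested genes of other conjugations (methyl, acetyl and glycine transfer) 11 fell and 1 rose in both, with glycine N-acyltransferase (Glyat) at a log2 fold change of -1.70 ± 0.11 in KO and -1.77 ± 0.13 in WT. Of 9 genes of sulfate and PAPS supply, 6 fell and 1 rose in KO and 5 fell and 1 rose in WT, and Bpnt1, which clears the product of PAPS use, fell by 1.60 in KO and by 1.75 in WT on the log2 scale. For UDP-glucuronate supply 3 of 4 fell in KO, while 2 fell and 1 rose in WT, with Ugp2 at a log2 fold change of -0.84 ± 0.08 in KO and -0.77 ± 0.09 in WT.

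Transporters of conjugates showed 9 of 14 lower and 5 higher in KO, and 8 lower and 1 higher in WT, with Abcg2 at a log2 fold change of -1.37 ± 0.08 in KO and -1.55 ± 0.09 in WT. Of 18 NRF2 targets outside the members, 9 fell and 5 rose in KO, and 10 fell and 3 rose in WT. Gclm, a subunit of the first enzyme of glutathione synthesis, had a log2 fold change of -1.01 ± 0.10 in KO and -1.005 ± 0.12 in WT. Among 20 tested receptors and regulators, 9 fell and 4 rose in KO, and 7 fell and 2 rose in WT, with Hnf4a, a regulator of proximal tubule genes, at a log2 fold change of -1.07 ± 0.10 in KO and -1.55 ± 0.13 in WT. Marker lists of cells outside the nephron gave mixed counts: 10 liver markers were split (3 higher and 4 lower in KO, 3 and 3 in WT), 1 of 2 tested adrenal markers was higher in both, and none of 5 adipocyte markers was called.

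Knockout and wild type were then compared on the same day. No member was called at day 0 (0.0166% of all tested genes were called), at day 5 (0.0% of all) or in the interaction of genotype and day (0.00553% of all), by limma with Benjamini-Hochberg adjustment. At an unadjusted p under 0.05, 13 of the 46 members passed at day 0 (15% of all tested genes did), 8 at day 5 (5.67% of all) and 11 in the interaction (7.59% of all). The smallest adjusted p was 0.091 for Gsto1 at day 0 (-0.74 ± 0.16), 0.655 for Gstz1 at day 5 (0.38 ± 0.10) and 0.586 in the interaction, for Gsto2 (1.04 ± 0.32) and Sult1c2 (0.67 ± 0.22). DESeq2 on the recovered reads called 5 members lower in KO at day 0 (Gsto1, Gsta4, Gsta2, Ugt1a10 and Ugt1a2) and Gstz1 higher in KO at day 5, each chosen for mention after its value was seen. The share of all genes that DESeq2 called is not given here. In that order, the 5 members stood at 102.1, 229, 669, 22.1 and 429 scaled CPM in WT day 0 replicate 2, the Xist kidney. WT day 0 replicate 1 held 70.3, 53.8, 182, 3.03 and 1.88.

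At day 0 the genotype comparison sets 4 Y-linked KO libraries against 1 Y-linked and 1 Xist WT library, so genotype and the sex-chromosome pattern are partly confounded. Without WT day 0 replicate 1, 4 members were called higher in KO (Ugt2b37, Ugt2b38, Ugt2b5 and Ugt8a) and 6 lower (Mgst1, Gsto1, Gsta4, Gsta2, Ugt1a6a and Ugt1a10), a comparison of Y-linked KO kidneys with 1 Xist kidney, where 2.34% of all tested genes were higher and 1.22% lower. The same step gave 3 higher and 1 lower in the interaction, where 0.216% of all were higher and 0.332% lower. Without WT day 0 replicate 2, the Xist kidney, limma called 0 members at day 0 and 0 in the interaction, with 3 and 4 at an unadjusted p under 0.05. In both steps the lone WT day 0 library is assumed to vary like the other groups.

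The sex-chromosome pattern was then tested. With genotype and day held fixed, 6 members were higher and 7 lower in libraries with Y-linked transcripts than in those with Xist, where 3.53% of all tested genes were higher and 4.41% lower (7.94% in all). The UGTs held the largest differences: Ugt1a2, an enzyme of the bilirubin-related locus, had a log2 difference of -6.40 ± 0.33 (adjusted p = 1.23e-07), Ugt1a10 one of -2.41 ± 0.37 (adjusted p = 0.00176) and Ugt2b34 one of -2.06 ± 0.20 (adjusted p = 3.67e-05). Ugt2b37 was higher by 2.58 ± 0.60 (adjusted p = 0.0203), Ugt8a by 2.01 ± 0.21 (adjusted p = 9.14e-05) and Ugt2b38 by 1.97 ± 0.30 (adjusted p = 0.00156). Smaller differences were called for Gstp3, Ugt1a7c and Gstp1 (higher) and Gsta2, Gsta3, Gstk1 and Gstt1 (lower). The Ugt1a7c call was lost without KO day 5 replicate 2 (0.45, adjusted p = 0.0936) or WT day 5 replicate 3 (0.29, adjusted p = 0.174), the only Y-linked libraries of day 5. The calls of Gstp1, Gstp3 and Gstt1 were lost when any of 8, 5 and 9 single libraries was left out, with adjusted p of up to 0.253 for Gstp1, 0.31 for Gstp3 and 0.177 for Gstt1.

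Ugt1a2 showed this pattern in the plainest form. Y-linked kidneys held 0.591 (KO) and 0.307 (WT) scaled CPM at day 5, against 76.9 and 94.5 (KO) and 31.1 and 53.5 (WT) in Xist kidneys. At day 0 the Y-linked kidneys held 0.371, 0, 0.454 and 0.833 (KO) and 1.88 (WT), against 429 in the Xist kidney. No Y-linked library came near an Xist library on either day. Ugt2b34 stood at 5.52 (KO) and 6.22 (WT) in Y-linked kidneys at day 5, against 35.0 and 38.1 (KO) and 25.0 and 27.9 (WT) in Xist kidneys. At day 0 it had 16.9, 23.5, 21.1 and 30.1 (KO) and 27.7 (WT) in Y-linked kidneys, against 73.6 in the Xist kidney.

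Ugt1a10 had 0.443 (KO) and 1.01 (WT) scaled CPM in Y-linked kidneys at day 5, against 3.70 and 10.9 (KO) and 3.36 and 5.996 (WT) in Xist kidneys. At day 0 it had 0.68, 0.759, 0.194 and 1.43 (KO) and 3.03 (WT), against 22.1. Ugt2b37 went the other way, with 77.0 (KO) and 61.7 (WT) in Y-linked kidneys at day 5, against 23.2 and 25.9 (KO) and 31.4 and 33.5 (WT) in Xist kidneys. At day 0 it had 191.6, 197, 203 and 204 (KO) and 126.1 (WT), against 1.39 in the Xist kidney. Ugt2b37, Ugt2b38 and Ugt8a were each higher in every Y-linked kidney than in any Xist kidney of the same day.

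By day, in a fit added after the data had been seen, 6 members were higher and 6 lower in Y-linked kidneys at day 5, where 3.38% of all tested genes were higher and 4.07% lower (7.45% in all). At day 0, 4 were higher and 7 lower, where 1.3% were higher and 1.07% lower (2.37% in all). The day 0 difference is that of 1 Y-linked kidney, WT replicate 1, against 1 Xist kidney, WT replicate 2. All KO day 0 kidneys were Y-linked and the fit gave KO its own day 0 level, so they do not enter this difference. Both WT kidneys are assumed to vary like the other kidneys, and the difference has no value without either. The 12 of day 5 were the 13 named above without Gstt1. At day 0 Ugt2b5 (2.29 ± 0.37) was also higher and Ugt1a6a (-2.39 ± 0.41), Gsta4 (-2.08 ± 0.27) and Mgst1 (-1.19 ± 0.12) also lower.

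**Figure D4:**
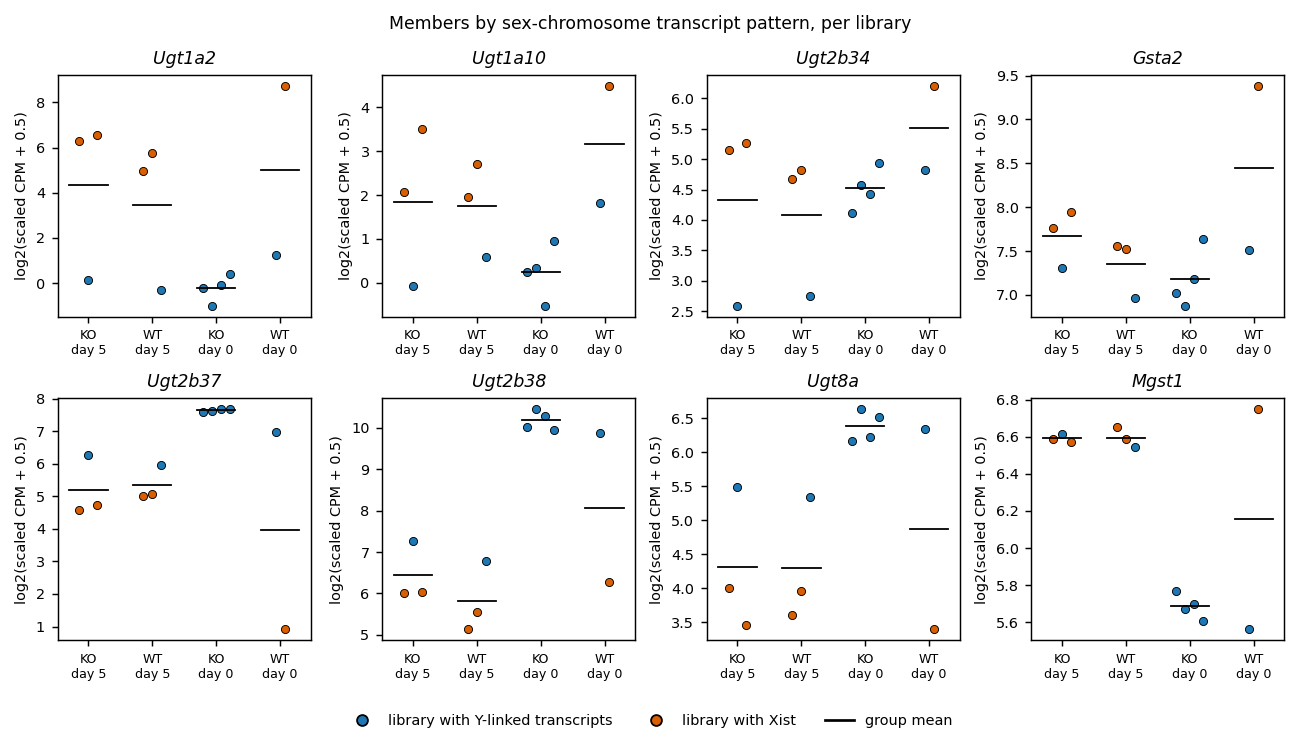
Log2(scaled CPM + 0.5) per library (y axes) of 8 members in the KO day 5, WT day 5, KO day 0 and WT day 0 kidneys; points are libraries coloured by sex-chromosome transcripts and lines are group means. Ugt1a2 is below 2 scaled CPM in every Y-linked library and at least 31.1 in every Xist library, and Ugt2b37, Ugt2b38 and Ugt8a are higher in Y-linked libraries on both days.

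Ugt2b37 and Ugt2b38, 2 genes of the UGT2 cluster on chromosome 5 with the opposite pattern, are shown because their start-site regions are alike. Over the 300-base promoters they were 86.9% identical. Ugt2b5 was 84.2% identical to Ugt2b38 and 76.2% to Ugt2b37. It was not called for the pattern over both days or at day 5, and at day 0 held 6.36 scaled CPM in WT replicate 1 and 0.907 in WT replicate 2. Ugt2b38 was 47.5% identical to Ugt2b34, which differed the other way, and 49.2% to Ugt1a5 of another family. Whether promoter likeness goes with the pattern was not tested. Capitals mark the 82-base run that both windows share, on the gene's strand, at chr5:87254739-87254938 (Ugt2b37) and chr5:87424154-87424353 (Ugt2b38), and the window of Ugt1a2, which differed the other way, lies at chr1:88200461-88200660. All 3 windows span the same bases around the start site as that of Mgst1.
Ugt2b37: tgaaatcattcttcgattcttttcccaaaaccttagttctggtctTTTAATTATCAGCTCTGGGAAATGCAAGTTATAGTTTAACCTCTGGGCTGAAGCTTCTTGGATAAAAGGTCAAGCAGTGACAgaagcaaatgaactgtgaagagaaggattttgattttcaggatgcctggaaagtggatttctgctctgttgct
Ugt2b38: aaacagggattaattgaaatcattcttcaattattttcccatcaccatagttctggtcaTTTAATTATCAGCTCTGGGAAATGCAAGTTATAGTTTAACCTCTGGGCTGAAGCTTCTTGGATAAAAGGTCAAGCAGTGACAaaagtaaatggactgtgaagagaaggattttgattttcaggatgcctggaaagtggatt
Ugt1a2: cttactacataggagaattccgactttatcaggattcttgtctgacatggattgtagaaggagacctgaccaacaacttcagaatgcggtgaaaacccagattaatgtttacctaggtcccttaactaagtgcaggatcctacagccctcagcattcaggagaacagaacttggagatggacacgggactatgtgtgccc

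The size of the sex-chromosome difference depended on the day for 4 members, out of 0.453% of all tested genes called, in the same added fit. Ugt2b37 differed by 1.27 ± 0.12 at day 5 and by 6.07 ± 0.20 at day 0, and Ugt2b38 by 1.36 ± 0.14 at day 5 and by 3.60 ± 0.22 at day 0. The change of that difference was -4.79 ± 0.24 for Ugt2b37 (adjusted p = 5.83e-07) and -2.24 ± 0.26 for Ugt2b38 (adjusted p = 0.00219). For Gsta4, which conjugates the lipid aldehyde 4-hydroxynonenal, it was 1.92 ± 0.31 (adjusted p = 0.0164), and for Mgst1 1.17 ± 0.14 (adjusted p = 0.00251). The day 0 side of each sets a single Y-linked library, WT replicate 1, against a single Xist library, WT replicate 2. Replicate 2 held 1.39 scaled CPM of Ugt2b37, 76.8 of Ugt2b38, 229 of Gsta4 and 107.2 of Mgst1, against 126.1, 934, 53.8 and 46.7 in replicate 1. Of 5 tested adipocyte markers 3 were also called in that term, with summed levels of 0.929 to 85.3 scaled CPM in KO and 47.3 to 166.9 in WT kidneys at day 5, against 10.7 to 65.4 in KO and 0.545 to 137 in WT kidneys at day 0, and their part in the result was not tested.

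**Figure D5:**
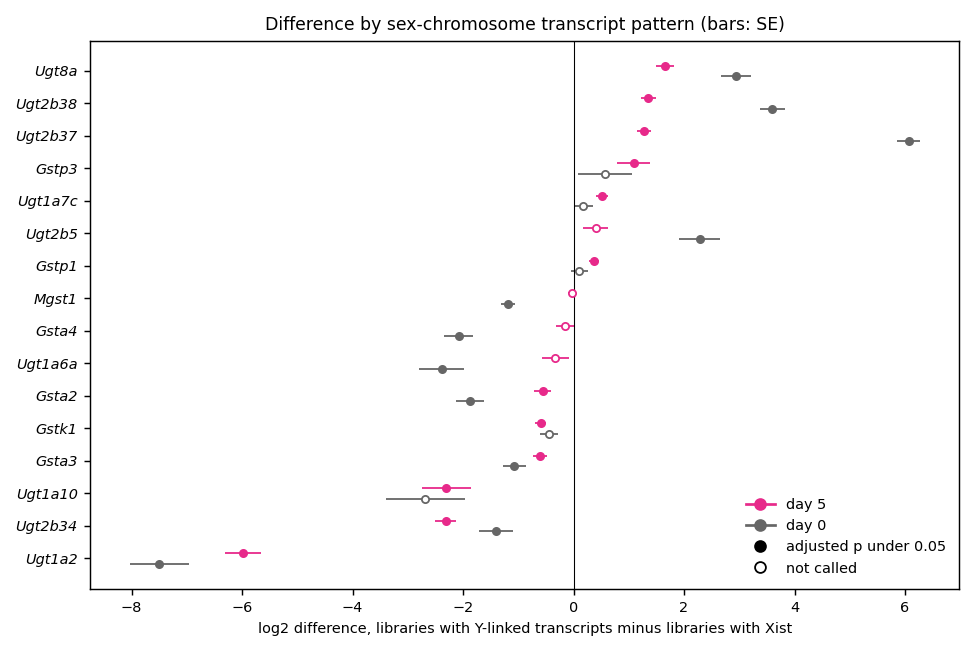
Log2 difference of libraries with Y-linked transcripts minus libraries with Xist (x axis; bars are the standard error) at day 5 (pink) and day 0 (grey) for members called on either day; filled points passed an adjusted p of 0.05. Ugt2b37 lies at 1.27 at day 5 and 6.07 at day 0, and the day 0 side is 1 Y-linked against 1 Xist WT library.

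For the Y-linked pattern, that fit gave log2 fold changes of day 5 over day 0 for each genotype. The fitted change was -2.84 ± 0.15 in KO and -3.14 ± 0.20 in WT for Ugt2b38, and -1.60 ± 0.14 in KO and -0.79 ± 0.19 in WT for Ugt2b37. It was -0.97 ± 0.19 in KO and -0.93 ± 0.25 in WT for Ugt8a, and -1.72 ± 0.21 in KO and -2.27 ± 0.28 in WT for Ugt2b34, each past the threshold. The fit takes the pattern difference at day 5 as equal in both genotypes, so every day 5 kidney enters each value, Xist kidneys included. These are thus not the changes of the Y-linked kidneys alone, and gaps between KO and WT in them are partly set by the fit. There was 1 Y-linked day 5 kidney per genotype and, in WT, 1 Y-linked day 0 kidney, so the errors take their spread from all libraries of the fit. Mgst1 was higher by 0.89 ± 0.08 in KO and 1.02 ± 0.11 in WT. For the Xist pattern in WT, with 2 Xist kidneys at day 5 and 1 at day 0, the fitted Ugt2b37 was higher at day 5 by 4.00 ± 0.17. Ugt1a2 (-3.28 ± 0.45) and Gsta2 (-1.85 ± 0.21) were lower, and KO day 5 kidneys enter these values as well.

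Genes outside the members showed the same split. The anion carrier Slco1a1 was higher in Y-linked libraries by 6.27 ± 0.28 and the prolactin receptor Prlr lower (-3.85 ± 0.42). Of 18 NRF2 targets, 8 were higher in Y-linked libraries and none lower, of 20 proximal tubule markers 2 were higher and 10 lower, and of 10 loop and distal markers 5 were lower.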

How the data were processed

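Libraries were made with the PrepX mRNA kit from total RNA of frozen left kidneys and read to 50 bases, per the labels' protocols. Per the submitters' processing notes, STAR, SAMtools, HTSeq and the build GRCm38.p6 were used. Their versions, the gene annotation and the strand setting are not given in the sources used here. The deposited values are CPM: each of the 12 columns sums to the same total, and dividing by the smallest step gave whole reads for 100% of 665652 values (within 0.001).

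From these CPM, TMM-scaled log2(CPM + 0.5) was fitted with limma 3.58.1 (empirical Bayes with trend, R 4.3.3) over 4 groups in all 12 libraries. filterByExpr (minimum count 10, minimum total 15) left 18093 of 55471 genes, and Benjamini-Hochberg adjustment ran over all of them, with calls at 0.05. Libraries were classed by Y-linked transcripts or Xist, and that pattern was added as a term. Alternatives were edgeR 4.0.16, DESeq2 1.42.0 and voom on the recovered reads, RLE factors, library size only, other filters and pseudocounts, only the compared groups, a 1.5-fold threshold, the pattern as covariate, libraries of 1 pattern, and each library left out. The pattern-by-day fit was added after the data had been seen. The limma test was checked on simulated data.

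Members are those whose symbols match the enzyme families. Members and gene lists were chosen with earlier results of these data known. Named members are, per family, the most abundant, up to 3 called risers and fallers, and up to 5 per direction for the pattern. Shared sequence was measured on GENCODE M21 transcripts, and promoters are from RefSeq. Plots used matplotlib 3.10.9 (Python 3.11.15). Replicates carry no shared numbers in the labels, so no pairing was used. One gene result and the motif search that goes with it are not reported here.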

Additional observations from a re-analysis of the deposited data

Results flagged for a closer look

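A far value in the KO day 0 group of 4 was met in 7 of the 46 tested members, where chance flags about 1 group in 20 if values are normally distributed. The share of all tested genes flagged in this way is not given, so the count cannot show an excess in the members. Ugt1a7c stood at 122.3 scaled CPM, Gstk1 at 64.5 and Gstp3 at 0.911 in 1 kidney each, away from the other 3. Ugt2b5 stood at 9.17, Gstt3 at 39.2, Mgst3 at 143 and Sult6b1 at 0.494 in the same way. No single kidney held all 7.

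The change during obstruction differed between libraries with Y-linked transcripts and libraries with Xist for 4 members, in the term that was added after the data had been seen. It was -4.79 for Ugt2b37, -2.24 for Ugt2b38, 1.92 for Gsta4 and 1.17 for Mgst1 on the log2 scale. All 4 rest on 1 Y-linked against 1 Xist WT library at day 0.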

How the results depend on the processing

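With library size only, the median gene shifted by 0.37 log2 units in WT and 0.38 in KO. Members called were then 13 higher and 10 lower in KO, so more were higher than lower there, unlike with TMM scaling. WT gave 10 higher and 15 lower, with Gstp1 in WT reversed in sign (0.0132). A 1.5-fold threshold left 4 higher and 7 lower in KO and 3 higher and 10 lower in WT, and 2 higher and 3 lower for the Y-linked pattern. Without a filter the pattern called 3 higher. DESeq2 called 5 lower in KO at day 0 and 1 higher at day 5. Leaving out 1 library at a time gave 7 to 10 higher and 20 to 23 lower in KO, 6 to 8 higher and 19 to 24 lower in WT, 0 to 4 higher and 0 to 6 lower for genotype at day 0, 0 to 0 at day 5, and 0 to 3 higher and 0 to 1 lower for the interaction, the extremes at day 0 and in the interaction being without WT day 0 replicate 1. For the pattern it gave 3 to 7 higher (3 without KO day 5 replicate 2 or WT day 5 replicate 3) and 6 to 8 lower, and for its change with day 2 to 3 each way. The cause was not tested. Shares of all tested genes are not given beside the counts of this paragraph, so these counts cannot show whether the members differed from other genes. Of values for single members, 596 of 625 in KO, 547 of 598 in WT, 257 of 299 for the pattern and 30 of 30 for its change with day kept their direction and call. Those 30 values cover 3 members, and neither WT day 0 library was left out for them. The Xist kidney on which that term rests was thus never removed, so the 30 values cannot show how far it depends on that kidney. No paired analysis was possible because the labels give no replicate numbers that groups share. Precision is limited by group sizes of 2 to 4, and members near 1 scaled CPM rest on few reads.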
